A study of Mus musculus with 6 samples.

Results

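Egfr, Erbb2, Erbb3, Erbb4, Fgfr1, Fgfr2, Fgfr3, Fgfrl1, Lrig1 and Errfi1, the genes of EGF and FGF receptors and of proteins that restrain them, were followed in cultured mouse neural stem cells (NSCs) with and without miR-151. The 10 genes were listed by symbol and each was found by its Ensembl ID among the 32493 genes of the count table. The NSCs were taken at E14.5 from the walls of the lateral ventricles of C57BL/6J embryos and were grown for 3 generations before RNA-seq. Both genotypes carried floxed miR-151 alleles. The cko embryos also carried Emx1-IRES-Cre, a driver active in the dorsal telencephalon. Ctrl embryos, called wt in the labels, had no Cre. Cells outside the Emx1 lineage would keep the floxed alleles. The study checked the miRNA in cko NSCs by RT-qPCR, and the share of recombined cells in these libraries was not analysed here. The study lists EGF and bFGF in the culture medium, while the labels describe a medium with B27 and antibiotics and name neither factor.

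Each library was 1 culture sample, and whether the samples came from separate embryos is not stated, so the p-values below measure the spread between these samples. Total counts were between 17883796 and 23335736 in the 3 cko and 2 ctrl libraries used. In 32493 of 32493 genes the column of ctrl replicate 2 was the rounded-up average of the other ctrl columns, 1 and 3, and it was not counted as a library. Levels are given as CPM, the counts of a gene divided by the size of its library. A floor of 3 counts corresponds to 0.129 to 0.168 CPM, for counting error only. The deleted miRNA was not analysed here, so it gave no check of the labels. The summed CPM of 7 NSC markers was 6951 to 7895 in ctrl and 8113 to 8816 in cko, whereas 5 microglial markers together stayed at 0.480 CPM or below in every library, with Cx3cr1 and Tmem119 at 0 counts. Sex-linked genes also differed between genotypes, with Xist lower in cko (log2 fold change -1.69) and the Y-linked Kdm5d higher (1.40), and their part in the results below was not tested.

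EGF receptor and its relatives ERBB2, ERBB3 and ERBB4 are tyrosine kinases that pair with each other when EGF-family ligands bind. ERBB2 binds no known ligand and ERBB3 has little kinase activity of its own, so each works through a partner. FGF receptors pair when FGF and heparan sulfate bind, and both families feed the RAS-ERK cascade. EGF and FGF2 are the mitogens on which NSC cultures are usually grown.

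All 10 genes passed the filter on low counts and were tested in 1 fit with all 16710 genes that passed it. The test was edgeR's quasi-likelihood test, with a call at an adjusted p (Benjamini-Hochberg, over all tested genes) under 0.05. Each library was also left out in turn. Without ctrl 1 or ctrl 3, 1 ctrl library was left, so the p-values of those fits hold no spread between ctrl libraries. Egfr was higher in cko NSCs and Erbb2, Fgfr1 and Lrig1 were lower, while the other 6 did not pass. That is 1 higher gene beside 7.86% of all tested genes, 3 lower genes beside 8.57%, and 4 in either direction beside 16.4%. The median log2 fold change was -0.19 over the 10 genes and -0.0026 over all tested genes. The values of the 2 genotypes did not overlap for 7 of the 10 genes, where 49.7% of all tested genes showed no overlap. In bulk RNA, fewer cells of a type and less RNA per cell cannot be told apart.

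**Figure D1:**
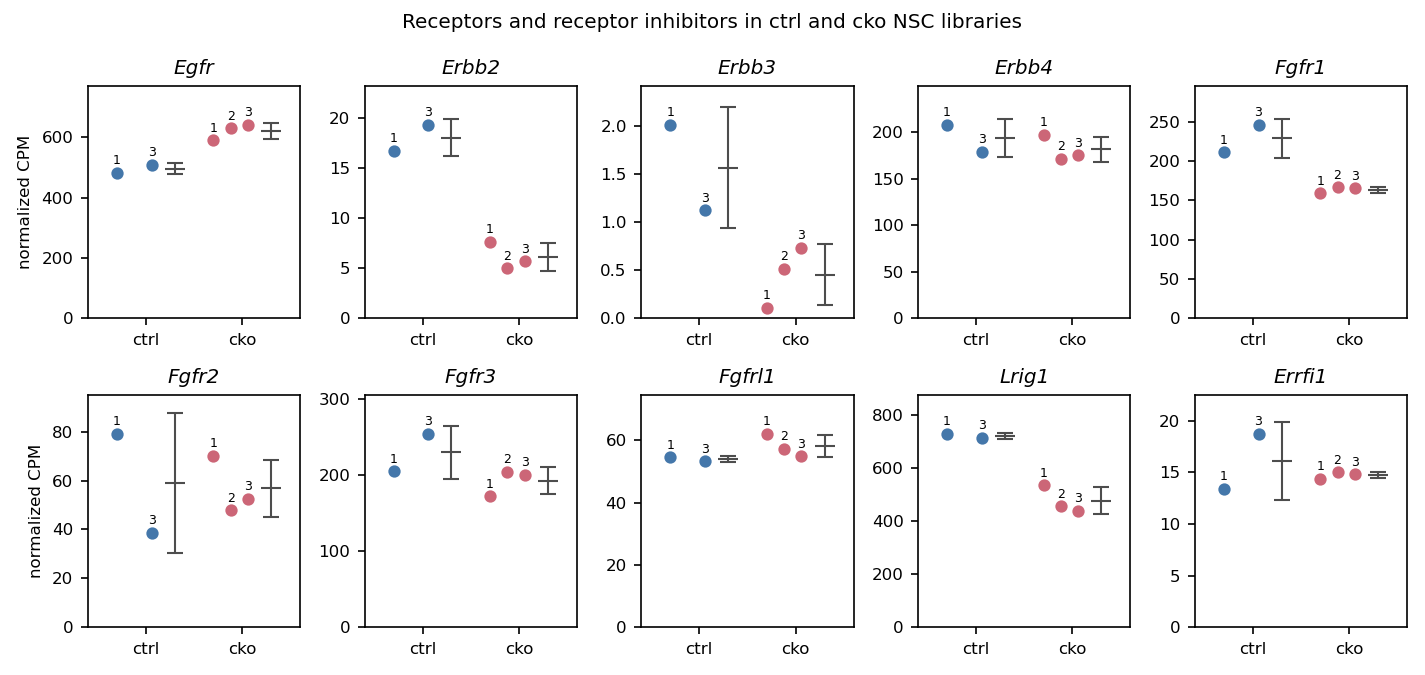
Normalized CPM of each of the 10 genes in ctrl libraries 1 and 3 (blue) and cko libraries 1 to 3 (red), with each group's mean and SD beside its points and every axis starting at 0. Erbb2 stood at 16.8 and 19.4 CPM in ctrl against 5.02 to 7.67 CPM in cko, while the points of Erbb4, Fgfr2 and Errfi1 overlapped.

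Egfr (ENSMUSG00000020122, chromosome 11, 16752203 to 16918158 on the plus strand of GRCm38) encodes the receptor for EGF itself. It was measured at 483 and 509 normalized CPM in ctrl libraries 1 and 3, and at 589, 630 and 641 in cko libraries 1, 2 and 3. Every cko library lay above both ctrl libraries. The means were 496 ± 18.4 (SD, n = 2) and 620 ± 27.3 (SD, n = 3), a 1.25-fold difference with a log2 fold change of 0.32 (SE 0.079, 95% interval 0.139 to 0.507, edgeR adjusted p = 0.0330). The call was lost without cko 1 (0.35, adjusted p = 0.0552), without cko 2 (0.30, adjusted p = 0.169) and without cko 3 (0.29, adjusted p = 0.167). The threshold was thus passed only with all 3 cko libraries, while the size of the difference was kept.

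Erbb2 (ENSMUSG00000062312, chromosome 11, 98412470 to 98437716, plus strand), the ligand-less partner receptor, showed the opposite change. Its normalized CPM was 16.8 and 19.4 in the ctrl libraries and 7.67, 5.02 and 5.70 in cko 1, 2 and 3. All cko libraries were below both ctrl libraries, from 117 to 137 counts against 363 and 384. Erbb2 was 2.96-fold lower in cko NSCs, from a mean of 18.1 ± 1.83 (SD, n = 2) to 6.13 ± 1.38 (SD, n = 3), with a log2 fold change of -1.57 (SE 0.198, 95% interval -2.03 to -1.10, edgeR adjusted p = 0.00376). Among the 4 called genes it was the one that kept its call without cko 1, without cko 2 and without cko 3 (edgeR adjusted p of up to 0.0327). Under the 12 alternatives run, its log2 fold changes were from -1.76 to -1.44. Those alternatives include fits that count the averaged column as a library and fits with 1 ctrl library. Its exons share 9 bp with Mien1 on the other strand, which held 852 counts over the 5 libraries.

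Erbb3 (ENSMUSG00000018166, chromosome 10, 128567523 to 128589652, minus strand), a neuregulin receptor that signals largely through ERBB2, was close to the depth limit. Its counts were 46 and 21 in ctrl 1 and 3 and 2, 12 and 16 in cko 1, 2 and 3, or 2.01 and 1.12 normalized CPM against 0.112, 0.514 and 0.735. The cko values lay below both ctrl values. With a log2 fold change of -1.74 (SE 0.597, 95% interval -3.14 to -0.346), Erbb3 did not pass the threshold (edgeR adjusted p = 0.0893). It passed when no filter on low counts was used (adjusted p = 0.00202). The log2 fold change was -1.26 without ctrl 1 and -2.08 without ctrl 3.

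Erbb4 (ENSMUSG00000062209, chromosome 1, 68032186 to 69108059, minus strand), the neuregulin receptor with an active kinase, had overlapping values. It was measured at 208 and 179 normalized CPM in ctrl and at 198, 172 and 176 in cko. The log2 fold change was -0.09 (95% interval -0.323 to 0.136, edgeR adjusted p = 0.555), and the interval includes changes in either direction.

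Of the FGF receptors, Fgfr1 (ENSMUSG00000031565, chromosome 8, 25513654 to 25575718, plus strand) was the one that passed the test. Its normalized CPM was 211 and 246 in ctrl 1 and 3 and 160, 166 and 166 in cko 1, 2 and 3. The cko libraries lay close together, below both ctrl libraries. Fgfr1 fell from a mean of 229 ± 24.7 in ctrl (SD, n = 2) to 164 ± 3.78 in cko (SD, n = 3). Its log2 fold change was -0.48 (SE 0.085, 95% interval -0.681 to -0.281, edgeR adjusted p = 0.0114). The call was lost without cko 2 (-0.50, adjusted p = 0.0658) and without cko 3 (-0.50, adjusted p = 0.0654), with the size of the difference kept. The antisense gene Gm16159 shares 164 bp of exon with Fgfr1 and held 68 counts over the 5 libraries.

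Fgfr3 (ENSMUSG00000054252, chromosome 5, 33721674 to 33737068, plus strand), a receptor known from neural progenitors and astrocytes, was at 205 and 254 normalized CPM in ctrl and at 172, 204 and 201 in cko. The cko values ended just below the lower ctrl value. Its log2 fold change of -0.25 (95% interval -0.530 to 0.0198) did not pass the threshold (edgeR adjusted p = 0.181). For Fgfr3 the value depended on the ctrl library used, with -0.41 without ctrl 1 and -0.09 without ctrl 3. G630022F23Rik, on the other strand, shares 998 bp of exon with it and held 316 counts over the 5 libraries.

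Fgfr2 (ENSMUSG00000030849, chromosome 7, 130162451 to 133123350, minus strand) varied more between libraries of a genotype than between genotypes. The normalized CPM was 79.1 and 38.7 in ctrl 1 and 3, and 70.1, 48.0 and 52.6 in cko 1, 2 and 3. The 2 ctrl libraries thus enclosed all 3 cko libraries. The log2 fold change was -0.06 (95% interval -0.725 to 0.615, edgeR adjusted p = 0.918). Its sign turned without ctrl 1 (0.54) and without cko 2 (0.05, adjusted p = 0.950). Ctbp2, on the same strand, shares 314 bp of exon with the Fgfr2 gene model and held 7706 counts, so some reads may be assigned to either gene.

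The remaining 3 genes encode proteins that limit receptor signaling. LRIG1 is a transmembrane protein that binds ERBB receptors and promotes their breakdown. Lrig1 (ENSMUSG00000030029, chromosome 6, 94604529 to 94700158, minus strand) was at 731 and 716 normalized CPM in ctrl 1 and 3 and at 537, 458 and 441 in cko 1, 2 and 3. The ctrl libraries were close to each other and well above every cko library. Lrig1 was 1.51-fold lower in cko, 479 ± 51.3 (SD, n = 3) against 724 ± 10.8 (SD, n = 2), with a log2 fold change of -0.60 (SE 0.0995, 95% interval -0.829 to -0.363, edgeR adjusted p = 0.00928). Without cko 2 the value was -0.57 (adjusted p = 0.0684) and without cko 3 -0.55 (adjusted p = 0.0603), and the call was lost in both. Slc25a26, on the other strand, shares 144 bp of exon with it and held 865 counts over the 5 libraries.

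FGFRL1 binds FGF but lacks the kinase domain of the other receptors. Fgfrl1 (ENSMUSG00000008090, chromosome 5, 108692382 to 108706924, plus strand) was at 54.6 and 53.3 normalized CPM in ctrl and 62.1, 57.4 and 55 in cko. Its cko values began just above the higher ctrl value, and the log2 fold change of 0.11 (95% interval -0.0875 to 0.304) did not pass the threshold (edgeR adjusted p = 0.411). ERRFI1, also called MIG6, is a cytoplasmic inhibitor that binds the kinase domain of ERBB receptors. Errfi1 (ENSMUSG00000028967, chromosome 4, 150853919 to 150868892, plus strand) was at 13.4 and 18.7 normalized CPM in ctrl and 14.4, 15.0 and 14.8 in cko. All cko values lay between the ctrl values, with a log2 fold change of -0.12 (95% interval -0.500 to 0.255, edgeR adjusted p = 0.645) that became 0.14 without ctrl 3.

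**Figure D2:**
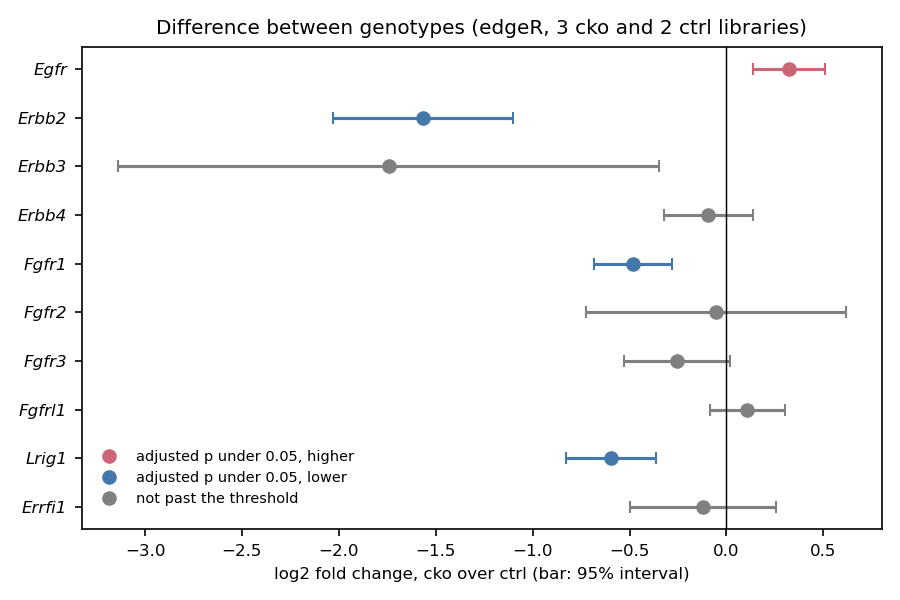
Log2 fold change of each gene, cko over ctrl, with its 95% interval from edgeR, colored by the call at an adjusted p under 0.05 (red higher, blue lower, grey not called). The interval of Erbb2 ran from -2.03 to -1.10 and that of Egfr from 0.139 to 0.507, while the interval of Erbb3 was the widest, from -3.14 to -0.346.

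Levels of different genes were compared as normalized CPM per kb of exon, with exon lengths from GENCODE M21. Lrig1 stood highest in both genotypes, at 130 ± 1.94 (SD, n = 2) in ctrl and 85.7 ± 9.18 (SD, n = 3) in cko. Egfr came next, at 43.8 ± 1.63 and 54.8 ± 2.41 CPM per kb, followed by Fgfr3 at 32.1 ± 4.86 and 26.9 ± 2.46. In ctrl NSCs the order went on with Fgfr1 (23.2), Fgfrl1 (19.4), Erbb4 (15.7), Fgfr2 (5.70), Errfi1 (4.49), Erbb2 (3.47) and Erbb3 (0.260). Fgfrl1 (20.9) and Fgfr1 (16.6) exchanged places in cko NSCs, and the other 8 genes kept their rank. Among neighbours in this order, the ctrl libraries of Fgfr2 (3.75 and 7.66 CPM per kb) overlapped those of Errfi1 (3.74 and 5.23), while Errfi1 and Erbb2 (3.22 and 3.72) were separated by less than the spread of either.

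Within the ERBB family, Egfr made up 69.3% ± 2.33 (SD, n = 2) of the summed CPM per kb in ctrl NSCs and 77.4% ± 2.21 (SD, n = 3) in cko NSCs. The share of Erbb2 went from 5.49% ± 0.538 to 1.67% ± 0.398. That of Erbb4 was 24.8% ± 2.70 and 20.8% ± 1.89, with overlapping values (22.9% in ctrl 3 and 23.0% in cko 1). Erbb3 was under 1% in both genotypes. A share also falls when another gene of the family rises. The summed level of the 4 genes was 63.2 ± 0.222 CPM per kb in ctrl and 70.7 ± 1.28 in cko, so the family sum was led by Egfr in both genotypes. The sum of Fgfr1, Fgfr2 and Fgfr3 moved the other way, from 61.0 ± 4.59 to 49.0 ± 1.72 CPM per kb. Neither sum was tested. Part of the lower FGF receptor sum was Fgfr3, at 32.1 in ctrl and 26.9 in cko, which did not pass. The share of Fgfr1 in that sum was 38% ± 1.24 in ctrl and 33.9% ± 0.423 in cko. Fgfr3 held the largest share in both genotypes, at 52.5% ± 4.02 and 54.8% ± 3.16.

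**Figure D3:**
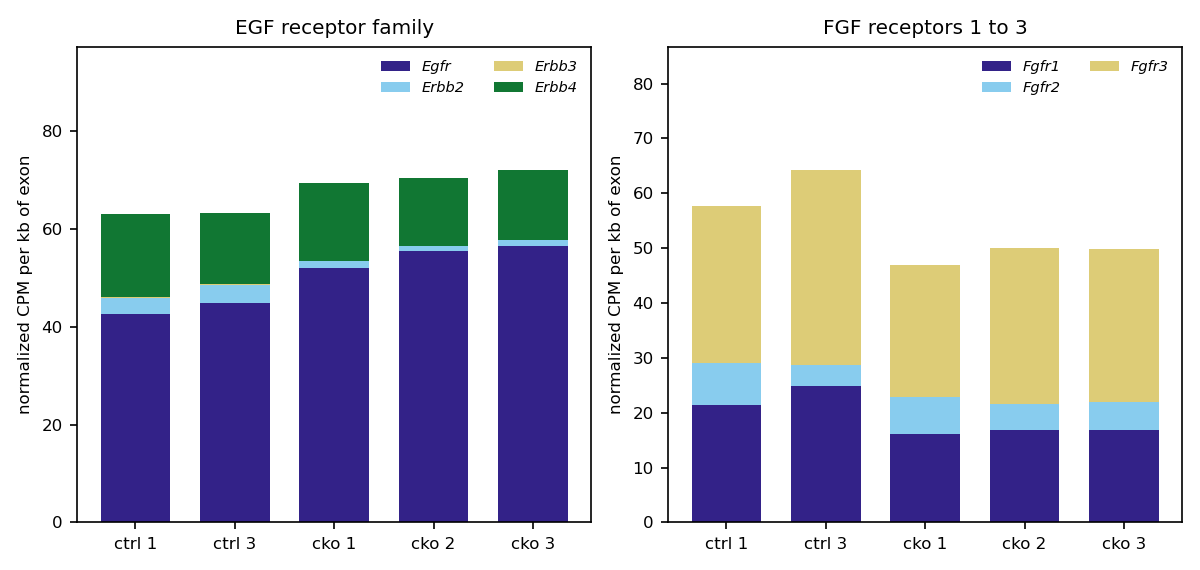
Stacked levels, in normalized CPM per kb of exon, of the 4 ERBB family genes (left) and of Fgfr1 to Fgfr3 (right) in each library, from 0. The ERBB stacks averaged 63.2 in ctrl and 70.7 in cko with a thinner Erbb2 layer, and the FGF receptor stacks averaged 61.0 in ctrl and 49.0 in cko.

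Ratios within a library do not depend on its scaling. Per kb of exon, the level of Egfr over that of Erbb2 was 13.2 and 12.1 in ctrl 1 and 3 and 35.4, 57.8 and 51.8 in cko 1, 2 and 3. Egfr over its inhibitor Lrig1 was 0.326 and 0.351 in ctrl against 0.541, 0.678 and 0.718 in cko. Both ratios were higher in every cko library. Egfr over Fgfr1 was 1.99 and 1.80 in ctrl against 3.22, 3.30 and 3.38 in cko, while Fgfr3 over Fgfr1 was 1.34 and 1.42 against 1.49, 1.69 and 1.67. Since Egfr was higher and Erbb2, Lrig1 and Fgfr1 were lower without overlap, the separation of the first 3 ratios follows from the genes themselves. The ratios therefore describe the balance in each library and were not used as a test.

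The promoter windows of the 2 genes that fell with the smallest adjusted p among the 10 and of the one that rose are shown because these 3 genes are the receptor, partner and inhibitor set against each other in the ratios above. Each window holds the 250 bases before the gene's start in RefSeq on GRCm38.p6, read 5′ to 3′ on the gene's strand, with every GC box (GGGCGG or CCGCCC, the binding sequence of SP factors) in capitals. RefSeq gave windows for 8 of the 10 genes, with none for Erbb3 and Fgfr1. The windows lie at chr11:98412234-98412483 (plus strand) for Erbb2, at chr6:94700146-94700395 (minus strand) for Lrig1 and at chr11:16751953-16752202 (plus strand) for Egfr.
Erbb2: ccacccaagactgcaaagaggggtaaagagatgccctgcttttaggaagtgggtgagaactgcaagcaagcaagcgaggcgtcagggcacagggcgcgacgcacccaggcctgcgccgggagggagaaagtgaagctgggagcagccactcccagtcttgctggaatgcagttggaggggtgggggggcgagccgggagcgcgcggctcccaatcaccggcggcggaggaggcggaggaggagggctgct
Lrig1: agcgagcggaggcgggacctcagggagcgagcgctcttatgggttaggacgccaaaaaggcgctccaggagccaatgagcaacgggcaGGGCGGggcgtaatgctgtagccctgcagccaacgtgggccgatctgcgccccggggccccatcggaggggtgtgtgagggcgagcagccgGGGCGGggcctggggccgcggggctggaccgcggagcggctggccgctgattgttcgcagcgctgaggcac
Egfr: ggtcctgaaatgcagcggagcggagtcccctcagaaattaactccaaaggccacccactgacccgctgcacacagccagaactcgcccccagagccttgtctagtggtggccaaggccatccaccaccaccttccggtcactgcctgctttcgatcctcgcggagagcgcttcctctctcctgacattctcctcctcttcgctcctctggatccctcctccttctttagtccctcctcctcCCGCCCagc
The GC content was 66.0% with 16 CpG in Erbb2, 71.6% with 26 CpG in Lrig1 and 60.8% with 11 CpG in Egfr, beside a median of 52.4% and 6 CpG over 32851 windows. Lrig1 held 2 GC boxes, Egfr 1 and Erbb2 none, where 32.7% of all windows held at least 1 on either strand. The E-box CACGTG (6.02% of all windows), the SOX core ACAATG or CATTGT (10.7%) and the TATA box TATAAA or TTTATA (12.4%) were also searched on both strands. None of these 3 motifs was in the Erbb2, Lrig1 or Egfr window. All 3 windows were thus richer in GC and CpG than the median window, whichever way the gene moved.

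Around the receptors, 147 genes in 7 lists (ligands, shedding and co-receptor genes, turnover genes, adaptors with the RAS-ERK cascade, feedback genes and other receptor tyrosine kinases) were followed in the same fit. Of these, 112 were tested, 11 were higher and 20 lower in cko, 27.7% called in all beside 16.4% of all tested genes. Their median log2 fold change was -0.09. When each cko library was left out in turn, 10 of the 31 called genes kept their call every time. These were Hbegf, Nrg1, Flrt1, Flrt3, Gpc1, Sdc4, Socs5, Epha5, Ephb4 and Mertk. Over all tested genes, calls fell from 1314 higher and 1432 lower to 317 and 416 without cko 2. Without cko 3 they fell to 336 and 457. The share of all called genes that kept their call every time was not counted.

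EGF-family ligands bind the ERBB receptors. Of 11 listed, 8 were tested, 1 was higher and 2 were lower, with a median log2 fold change of -0.19. That is 37.5% called beside 16.4% of all tested genes. Hbegf, which encodes a ligand of EGFR and ERBB4, was at 21.3 and 30.8 normalized CPM in ctrl and 7.44, 8.14 and 7.12 in cko (log2 fold change -1.78, edgeR adjusted p = 0.00195). Nrg1, a ligand of ERBB3 and ERBB4, was at 8.52 and 7.20 in ctrl and at 15.7, 16.6 and 17.0 in cko (1.06, edgeR adjusted p = 0.00441). All cko libraries were thus below both ctrl libraries for Hbegf and above both for Nrg1. Tgfa, another EGFR ligand, was lower, from 61.2 and 62.8 to 51.2, 37.6 and 40.8 (-0.52, edgeR adjusted p = 0.0355), and its call was lost without cko 2 or cko 3, at an adjusted p of up to 0.137. Egf itself was at 3.94 to 5.54 normalized CPM in all libraries and did not pass (0.11, edgeR adjusted p = 0.786).

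Secreted FGF ligands were sparse. Of 18 listed, 3 had no row and the filter left out 10 more, none above 20 counts in any library. Of the 5 tested, 2 were lower, 40% called beside 16.4% of all tested genes, with a median log2 fold change of -0.68. That median was the value of Fgf17 (edgeR adjusted p = 0.405), at 8 to 28 counts. Fgf7 (2.21, edgeR adjusted p = 0.0915) and Fgf18 (2.27, edgeR adjusted p = 0.135) lay the other way, at 15 counts or fewer in every library, and did not pass. Fgf1, which binds all FGF receptors, was at 36.2 and 62.8 normalized CPM in ctrl and 23.7, 24.5 and 26 in cko (-0.998, edgeR adjusted p = 0.0194). Fgf2, the factor supplied as bFGF, was at 10.1 and 5.55 in ctrl and 2.35, 3.26 and 2.80 in cko (-1.48, edgeR adjusted p = 0.0169). For both, all cko libraries were below the ctrl libraries, which differed from each other, and both calls were lost without cko 1, cko 2 or cko 3, at adjusted p of up to 0.0857 for Fgf1 and 0.0785 for Fgf2. The log2 fold change of Fgf1 was -0.55 without ctrl 3, and that of Fgf2 was -0.98 without ctrl 1.

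Among genes of ligand shedding and co-receptors, 15 of 19 were tested, 4 were higher and 3 lower, with a median of -0.04. That is 46.7% called beside 16.4% of all tested genes. Sdc4, a heparan sulfate proteoglycan that helps FGF bind its receptors, had the largest difference of the list, 35.5 and 47.2 normalized CPM in ctrl against 7.44, 5.62 and 7.22 in cko (-2.61, edgeR adjusted p = 0.000668). Rhbdf2, a cofactor of the sheddase ADAM17, was lower (-2.27) at levels of 2.27 and 3.15 against 0.429 to 0.781 normalized CPM, with its call lost without cko 2 (adjusted p = 0.0525). The FLRT membrane proteins, which bind FGF receptors, went in both directions. Flrt1 was at 11.7 and 14.0 in ctrl and 4.6 to 6.15 in cko (-1.33, edgeR adjusted p = 0.00558), and Flrt3 at 20.9 and 21.3 in ctrl and 46.3 to 47.2 in cko (1.15, edgeR adjusted p = 0.000954). Gpc1, a glypican, was higher at 191 to 227 normalized CPM against 117 and 138 (0.75, edgeR adjusted p = 0.00644). Fgfbp3, a carrier of FGF (0.76), lost its call without ctrl 1, cko 1 or cko 2, at an adjusted p of up to 0.141. Adam10, a sheddase outside the naming rule and added after its value was seen, was barely called (0.28, edgeR adjusted p = 0.0495) and lost its call without any library but ctrl 1, at an adjusted p of up to 0.181.

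Of 15 genes of receptor turnover, the LRIG paralogs among them, 14 were tested and 1 was lower, 7.14% called beside 16.4% of all tested genes, with a median log2 fold change of -0.11. Socs5, a SOCS protein that promotes EGFR breakdown, was at 50.7 and 53.2 normalized CPM in ctrl and 32.1, 33 and 35.9 in cko (-0.62, edgeR adjusted p = 0.00518). Neither paralog of Lrig1 passed. Lrig2 was at 51.7 and 51.2 normalized CPM against 50.7, 51.0 and 53.5, and Lrig3 at 17.8 and 17.0 against 13.7, 9.22 and 11.9 (-0.59, edgeR adjusted p = 0.0617). Whether Lrig1 differed more than its paralogs was not tested.

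Adaptors and the RAS-ERK cascade were all measured, with 1 of 22 genes higher, 2 lower and a median of -0.01. The share called was 13.6%, below the 16.4% of all tested genes. The called genes were docking proteins that link receptors to downstream enzymes. Gab1 was higher (0.51, edgeR adjusted p = 0.0110), and Gab2 (-0.40, edgeR adjusted p = 0.0231) and Frs2, the FGF receptor substrate (-0.29, edgeR adjusted p = 0.0456), were lower. The calls of Gab1 and Gab2 were lost without cko 2 or cko 3, at adjusted p of up to 0.0701 and 0.11, and that of Frs2 without any library but ctrl 3, at up to 0.167. The 3 Ras, 3 Raf, 2 MEK and 2 ERK genes listed did not pass.

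Feedback genes that ERK signaling induces included 1 higher and 4 lower genes of 13 tested, with a median of -0.34. That is 38.5% called beside 16.4% of all tested genes. The ERK phosphatase gene Dusp6 was at 60.7 and 124 normalized CPM in ctrl and 38, 45.5 and 40.8 in cko (-1.15, edgeR adjusted p = 0.0254). Etv4, a transcription factor of the PEA3 group, was at 78.9 and 158 against 57.0, 64.0 and 62.9 (-0.95, edgeR adjusted p = 0.0404). Spry2, a Sprouty inhibitor, was at 143 and 234 against 115, 113 and 101 (-0.78, edgeR adjusted p = 0.0302). In each of these, ctrl 3 was far above ctrl 1, which itself stayed above all cko libraries, and without ctrl 3 the log2 fold changes were -0.54 for Dusp6, -0.36 for Etv4 and -0.38 for Spry2. Their calls were lost without cko 1, cko 2 or cko 3, at adjusted p of up to 0.101, 0.128 and 0.121. The fourth lower gene, Dusp4 (-0.61), lies outside the naming rule, was added after its value was seen and lost its call without any library but ctrl 1, at an adjusted p of up to 0.128. Il17rd, an antagonist of FGF signaling, was higher at 53.8 to 58.6 normalized CPM against 37.6 and 25.0 (0.84, edgeR adjusted p = 0.0155), a call lost without cko 2 or cko 3 at an adjusted p of up to 0.0742. The other PEA3 genes, Etv1 (0.03, edgeR adjusted p = 0.891) and Etv5 (-0.16, edgeR adjusted p = 0.533), did not pass and had overlapping values.

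The other receptor tyrosine kinases gave 4 higher and 6 lower genes of 35 tested, with a median of -0.08. That is 28.6% called beside 16.4% of all tested genes. The largest differences among those called were in the ephrin receptors Ephb4 (-1.98, edgeR adjusted p = 0.00701) and Epha2 (-1.69, edgeR adjusted p = 0.0333), in Axl (-1.15, edgeR adjusted p = 0.0432) and in the collagen receptor Ddr2 (1.19, edgeR adjusted p = 0.0261). Epha5 (0.52, edgeR adjusted p = 0.00635) and Tyro3 (0.47, edgeR adjusted p = 0.0330) were higher as well. Calls were lost without cko 2 or cko 3 for Axl, Ddr2, Epha2 and Tyro3, also without ctrl 1 for Axl, without ctrl 3 for Epha2 and Tyro3, and without cko 1 for Ddr2 and Epha2, at adjusted p of up to 0.155 for Axl, 0.108 for Ddr2, 0.132 for Epha2 and 0.132 for Tyro3. Without ctrl 3 the log2 fold change of Epha2 was -0.96, and without ctrl 1 that of Ddr2 was 0.75. The fourth FGF receptor with a kinase, Fgfr4, had 4 and 5 counts in ctrl and 9, 13 and 12 in cko and did not pass (log2 fold change 1.29, edgeR adjusted p = 0.130).

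**Figure D4:**
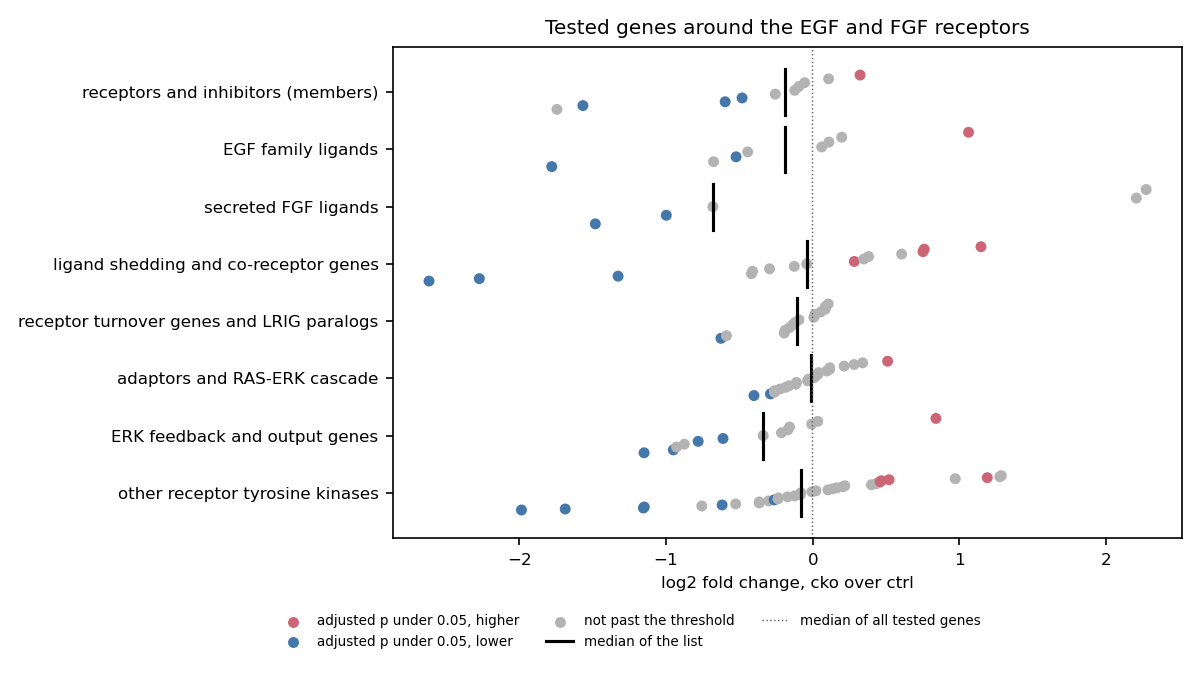
Log2 fold change of every tested gene of the 10 receptors and inhibitors and of the 7 lists around them, colored by the call (red higher, blue lower, grey not called), with each list's median as a black bar and the median of all tested genes as a dotted line. The medians ran from -0.68 for secreted FGF ligands, with 5 genes tested, to -0.01 for adaptors and the RAS-ERK cascade. Sdc4 at -2.61 was the lowest point.

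Markers of other cells moved with genotype as well. Of 11 oligodendrocyte-lineage markers, 72.7% were called, beside 16.4% of all tested genes. The progenitor factors Olig1 and Olig2 were higher in cko, while Sox10, Myrf, Mbp, Cnp, Mag and Cldn11 were lower. The precursor markers Pdgfra (log2 fold change 0.45, edgeR adjusted p = 0.0942) and Cspg4 (0.24, edgeR adjusted p = 0.594) did not pass. All Pdgfra values in cko were above those in ctrl. Mog did not pass either (-0.05, edgeR adjusted p = 0.947), and the summed CPM of the markers overlapped (2938 to 3551 in ctrl, 3475 to 3744 in cko). Of 7 astrocyte markers, 4 were lower (S100b, Aldoc, Slc1a2 and Gja1), or 57.1%, with sums of 2001 to 3037 CPM in ctrl and 833 to 1533 in cko. Gfap, Aqp4 and Aldh1l1 did not pass, and their values overlapped between genotypes. Among 7 NSC markers, Nes and Hes5 were higher and Slc1a3 was lower, 42.9% called in all. Of 8 neuronal and interneuron markers tested, 2 were higher and 1 lower, 37.5% called in all, with overlapping sums of 1126 to 1241 and 1225 to 1260 CPM. Schwann and neural crest markers summed to 19.2 to 25.9 CPM in ctrl and 13.7 to 15.2 in cko, fibroblast and meningeal markers to 12.3 to 18.4 and 3.75 to 5.24, and endothelial and mural markers to 5.55 to 5.72 and 5.87 to 7.40. Erbb2, Fgfr1 and Lrig1 were lower in the same cko libraries as the markers called lower, which holds for all 1432 genes called lower. The part of oligodendrocyte-lineage cells and astrocytes in the receptor results was not tested.

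**Figure D5:**
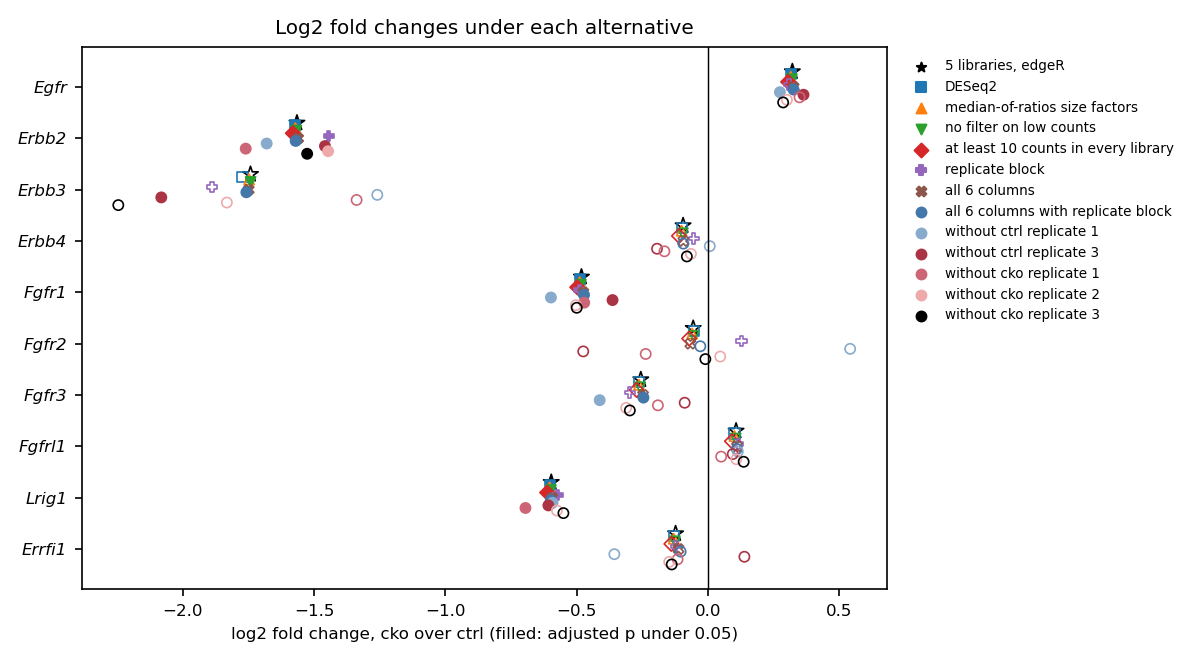
Log2 fold change of each gene under the reported comparison and 12 alternatives, with filled symbols for an adjusted p under 0.05. The symbols of Erbb2 are all filled, between -1.76 and -1.44, whereas those of Fgfr2 lie on both sides of 0, from -0.47 to 0.54.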

How the data were processed

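Gene counts from RNA-seq of cultured NSCs of both genotypes were used. The authors filtered the reads and aligned them with HISAT2 to mm10 (the labels list GRCm39) and deposited, in 6 columns, raw counts for each gene. The counting tool, annotation and strand setting are not given in the sources used here, so genes with shared exons are uncertain. The column of ctrl replicate 2, the rounded-up mean of replicates 1 and 3, was left out. Gene names, positions and exon lengths came from GENCODE M21 on GRCm38 (31836 of 32493 IDs matched), and promoter windows from RefSeq. Of 206 list symbols, 198 had a row. One further marker is not reported here.

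Counts were tested in R 4.3.3 with edgeR 4.0.16 (filterByExpr, TMM factors of 0.990 to 1.01, quasi-likelihood test, Benjamini-Hochberg adjustment over 16710 genes, threshold 0.05, no limit on the fold change). Values are TMM-normalized CPM and errors are SD. Groups followed the labels' genotype. The 10 genes and all lists were chosen with earlier results of these data known. The text names all 10 genes and, of each list, up to 3 higher and 3 lower called genes with the largest difference. The alternatives used median-of-ratios size factors, DESeq2 1.42.0, no filter on low counts, a minimum of 10 counts per library, a replicate block, all 6 columns with and without that block, and leaving out each library. On simulated data of this comparison with 16710 genes, 200 of them changed by a log2 fold change of 1.5, edgeR recovered 79% (89.2% of those above 1 CPM) with 178 calls, 11.2% of them false. The share for DESeq2 was also 79%, with 192 calls, 17.7% of them false. Both false shares lay above the threshold of 0.05. Smaller differences, such as those of Egfr, Fgfr1 and Lrig1, were not simulated. Figures were drawn with matplotlib 3.10.9.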

Additional observations from a re-analysis of the deposited data

How the results depend on the processing

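DESeq2, median-of-ratios size factors and a minimum of 10 counts in every library left the same counts of 1 higher and 3 lower gene among the 10, and with no filter on low counts they were 1 and 4. With all 6 columns, 17 genes of the surrounding lists were higher and 31 lower, against 11 and 20 with 5 libraries. With all 6 columns and the replicate block, 5 of the 10 genes were lower (Erbb3 and Fgfr3 added) and 17 list genes higher. The averaged column adds no independent library to either fit. Leaving out 1 library gave 0 to 1 higher and 1 to 4 lower of the 10 genes, and 4 to 16 higher and 6 to 26 lower list genes. The upper ends of these ranges came from fits with 1 ctrl library, which hold no spread between ctrl libraries. When a cko library was left out, 0 of the 10 genes were higher and 1 to 3 lower. In those fits 4 to 7 list genes were higher and 6 to 11 lower. The log2 fold changes of genes not called ranged from -0.47 to 0.54 for Fgfr2 and from -0.41 to -0.09 for Fgfr3. They ranged from -0.19 to 0.0079 for Erbb4 and from -0.36 to 0.14 for Errfi1. Over all genes, 1314 were higher and 1432 lower with 5 libraries, 2865 and 2794 with all 6 columns, and 2675 and 2673 with the block added. The counts were 853 and 907 without cko 1, 317 and 416 without cko 2, and 336 and 457 without cko 3. Fits without ctrl 1 or ctrl 3 leave 1 ctrl library, so their counts over all genes are not given. With no filter, 1838 were higher and 2237 lower of 30524 tested.

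The genotypes share replicate numbers 1 and 3 in the 5 libraries. Deviations of same-numbered libraries correlated at r = 0.143 for number 1 and 0.0507 for number 3 over 16710 genes, which are not independent. The study describes cko and ctrl littermates, but neither it nor the labels tie a replicate number to a litter, so the numbers were not taken as pairs. With the replicate block, 0 of the 10 genes were higher and 3 lower. The log2 fold change of Egfr was then 0.31 (adjusted p = 0.142) and that of Fgfr2 0.13 (adjusted p = 0.648), and 918 genes in all were higher and 1065 lower. The block takes the difference from replicates 1 and 3, since cko 2 has no ctrl library of its number. Depth limits Erbb3 most, with 2 counts in cko 1, and it could not be tested at a minimum of 10 counts in every library.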
